A study of Mus musculus with 3 samples.

Results

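The genes of the proteasome were collected by symbol, as protein-coding genes named Psm followed by a letter from a to g and a number, with the interferon-inducible Psmb8, Psmb9 and Psmb10 left aside. The rule found 47 genes among 55536 annotated genes, of which 22028 are protein-coding. A known subunit, assembly chaperone, activator or inhibitor of the proteasome is encoded by 46 of them. The other is Psmc3ip, which shares the spelling only and whose product acts in meiotic recombination.

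The cells were macrophages grown from bone marrow of C57BL/6J mice and treated for 60 min with 100 ng/ml lipid A, the anchor of bacterial lipopolysaccharide and the ligand of Toll-like receptor 4. RNA of their cytosolic fraction, 1 µg per library, was depleted of ribosomal RNA and sequenced in 3 libraries, all of 1 group. The labels number the libraries as biological replicates 1 to 3, share 1 donor entry that names the strain, and give neither age nor sex, so a p-value here is about the spread of these 3 libraries, and that spread may be technical. Neither untreated cells nor nuclear RNA were analysed here, and every value below is a level in the treated cytosol, with no induction measured.

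The files assign 63944236, 71989793 and 69305836 expected counts to annotated genes in replicates 1, 2 and 3, and 3 values in a row stand for these replicates in that order throughout. All 6 macrophage markers were present, from 21.7 TPM for Itgam to 5032 TPM for Lyz2. Markers of B cells, of T and NK cells, of dendritic cells and of stroma and endothelium were all under 1 TPM, with a highest value of 0.203 TPM (Xcr1). Of 5 neutrophil markers, S100a8 (10.1 TPM) and S100a9 (15.9 TPM) passed 1 TPM, and Ly6g, Elane and Mpo did not. In such bulk samples, fewer cells with a transcript and fewer transcripts per cell cannot be told apart.

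The proteasome is the protease that degrades proteins tagged with ubiquitin. Its core particle is a barrel of alpha subunits, which form the outer rings and the gate, and beta subunits, which form the inner rings and hold the active sites. A regulatory particle caps the barrel: its base carries a ring of ATPases that unfold the substrate, and its lid removes the ubiquitin chain. In macrophages the proteasome also degrades the inhibitors of NF-kB after Toll-like receptor signalling and produces peptides for presentation on MHC class I molecules.

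Most genes of the core and of the regulatory particle lay above a band around the median gene, and 3 of 7 assembly chaperone genes lay below it. Of the 47 genes, 44 averaged at least 1 TPM (a transcript level scaled by length and by library) and were tested, among 9123 protein-coding genes at that level. The level of each gene was compared with the median tested gene of its own library, which lay at 9.08, 5.76 and 6.86 TPM. With limma's treat test against a band of 2-fold around that median and Benjamini-Hochberg adjustment at 0.05, 27 of the 44 were above the band, where 26.3% of all tested genes were above it. Another 3 were below the band, where 24.5% of all tested genes were below it, and 14 were called in neither direction.

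Read by class, the genes above the band were 6 of 7 tested alpha ring genes, 7 of 7 beta ring genes, 5 of 6 ATPase genes, 3 of 3 other base genes, 4 of 8 lid genes and 2 of 5 activator genes. These calls are on TPM summed over all transcripts of a gene, also those not annotated as coding. No assembly chaperone with a Psm symbol was above it (0 also at an unadjusted p under 0.05 in limma), and the 3 genes below it (Psmg1, Psmg3 and Psmd5) all encode chaperones. Over all 44 genes, the median difference from the median gene was 1.46 ± 0.004 on the log2(TPM + 0.1) scale (SD, n = 3), where the median of all tested genes is at 0 by construction. TPM was highest in replicate 1 for 44 of the 44 genes and lowest in replicate 2 for 43 of them, as was the median gene. Protein-coding genes outside the mitochondrial genome held 32.7, 21.6 and 23.6% of all TPM. The 47 genes lie on 16 chromosomes, with 10 of them on chromosome 11. Together they held 0.229% of the counts in replicate 1 (95% Wilson interval 0.2275 to 0.2298%), 0.218% in replicate 2 (0.2171 to 0.2192%) and 0.230% in replicate 3 (0.2288 to 0.231%). These intervals cover counting error only.

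**Figure D1:**
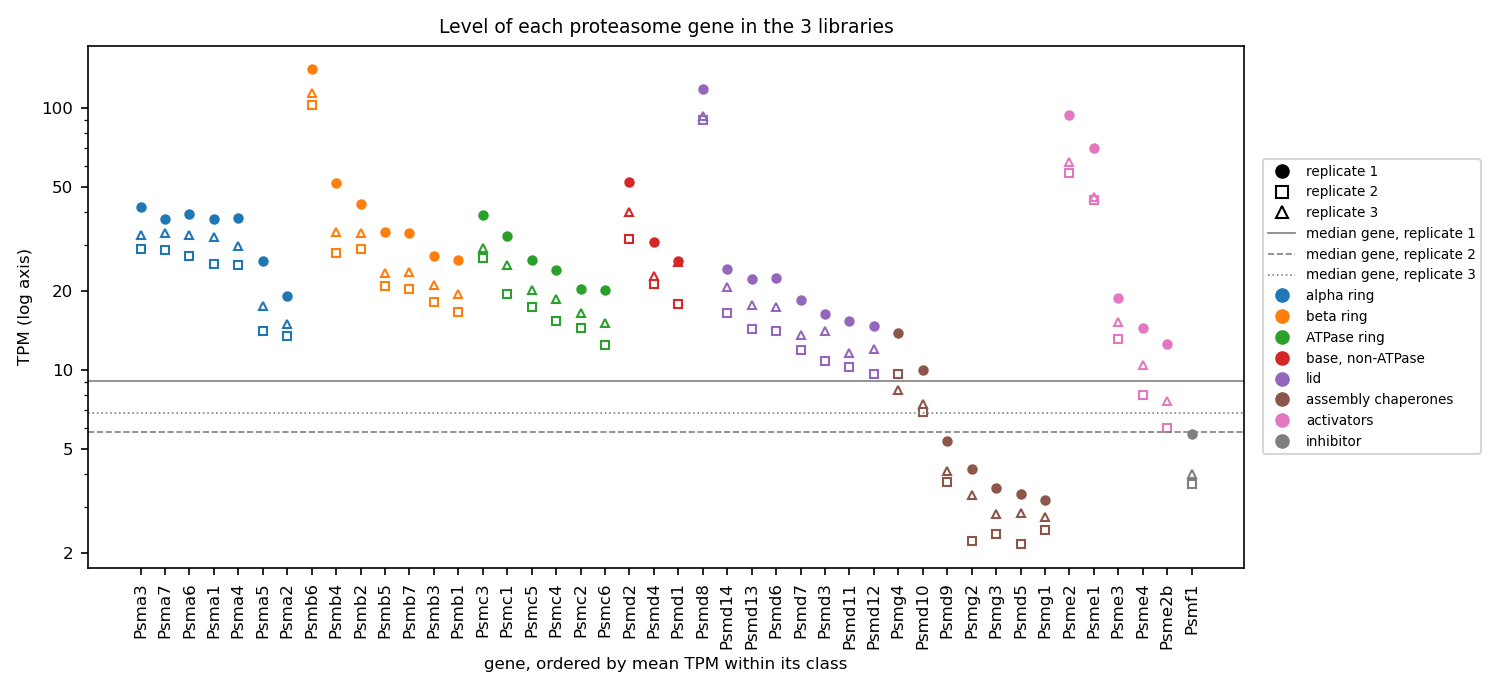
TPM (log axis) of the 44 proteasome genes of at least 1 TPM in each of the 3 libraries, with genes grouped by class and ordered by mean TPM, and with horizontal lines at the median tested gene of each library. Psmb6 and Psmd8 stand above the genes around them, and the assembly chaperones and Psmf1 lie near or under the lines.

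**Figure D2:**
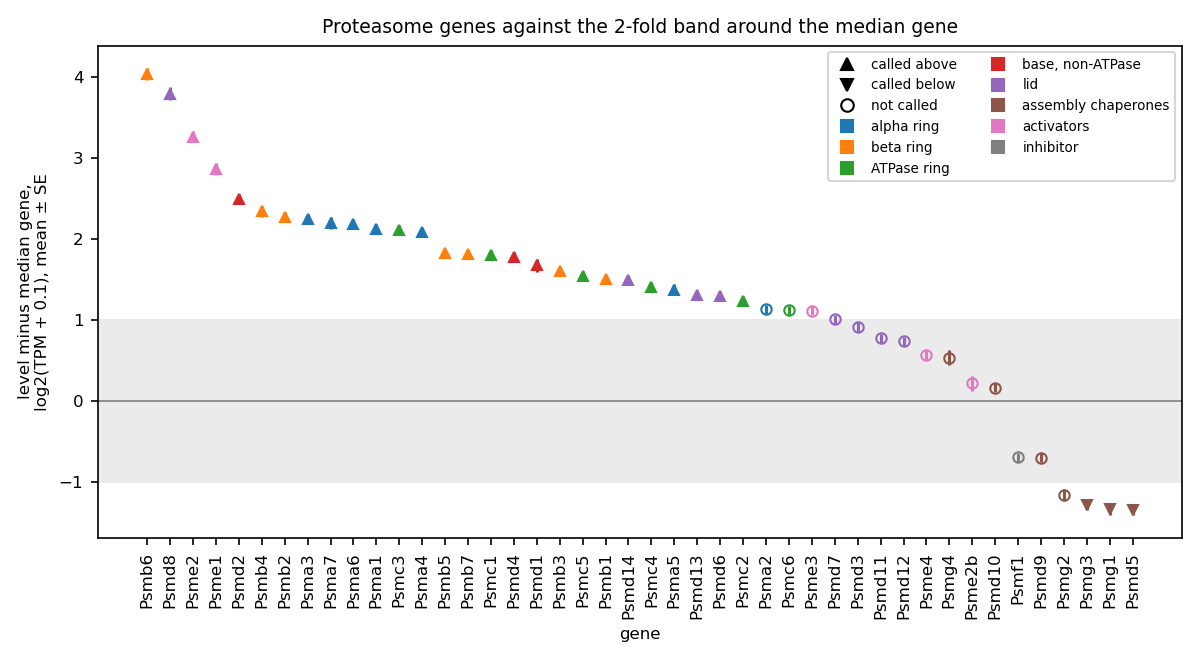
Difference of each of the 44 genes from the median tested gene of its library on the log2(TPM + 0.1) scale, with the 2-fold band in grey. Points are means over 3 libraries and bars are limma's moderated SE. Filled triangles mark the 27 genes above and the 3 genes below the band, and open circles the 14 genes in neither call.

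Summed over all transcripts of a gene, the alpha ring was expressed at an even level apart from a pair of lower genes. Psma3 had 41.8, 28.8 and 32.6 TPM. Psma7 had 37.7, 28.7 and 33.2 TPM. Psma6 had 39.2, 27.1 and 32.7 TPM. All 3 encode structural subunits of the outer ring, and their means were 34.4, 33.2 and 33.0 TPM. Psma3 was the highest of the 3 in replicates 1 and 2, and Psma7 in replicate 3. Transcripts annotated as coding held 51.3, 43.8 and 49.2% of Psma3, against 99.6% on average in Psma7 and 99.8% in Psma6. In the second transcript table the coding share of Psma3 was 34.3% on average. The lower pair, Psma5 and Psma2, stood at 100% in the first table. At these shares the coding part of Psma3 lay below Psma5 in each library. The high rank of Psma3 thus holds over all transcripts and not over those annotated as coding. Psma1 was next in the order of means with 37.6, 25.3 and 32.2 TPM, and Psma4 had 37.9, 25.03 and 29.6 TPM.

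Psma5 was lower, with 26.1, 14.0 and 17.5 TPM, and lay 1.37 ± 0.07 over the median gene (log2 scale; SE, n = 3; limma adjusted p = 0.00175). Each SE of a level here and below is limma's moderated SE. Psma2 was the lowest of the ring with 19.1, 13.5 and 14.97 TPM, and at 1.13 ± 0.06 it was not called (limma adjusted p = 0.0668). All alpha subunits take equal places in the ring, but over all transcripts Psma2 had less than each of the 5 leading alpha genes in every library. Apart from Psma3 against Psma5, levels over coding transcripts alone were not compared in this ring. Psma8, the testis form of an alpha subunit, had 0.63, 0.38 and 0.32 TPM from 61, 74 and 61 counts and was not tested. The testis markers Tnp1 and Prm1 were listed at 0 in all libraries.

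In the beta ring a single gene stood apart. Psmb6 (chr11:70525367-70527858, plus strand, GRCm38) encodes the standard caspase-like catalytic subunit. It had 140.3, 102 and 114 TPM, and it lay 4.03 ± 0.07 over the median gene (log2 scale) (SE, n = 3; limma adjusted p = 2.22e-07). Its TPM was 4.20, 4.97 and 4.88 times the median of the other 6 tested beta genes in the same library, and 4.398, 4.95 and 4.79 times it in the second deposited transcript table. The lowest Psmb6 value was above the highest value of any other alpha or beta gene.

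The other beta genes lay close together. Psmb4, a structural subunit, had 51.4, 27.9 and 33.6 TPM. Psmb2, also structural, had 43.1, 28.9 and 33.3 TPM. Psmb5, the chymotrypsin-like catalytic subunit, had 33.7, 20.8 and 23.3 TPM. The mean of Psmb5 was 25.9 ± 6.83 TPM, against 118.9 ± 19.5 TPM for Psmb6 (SD, n = 3), although both fill equal places in the ring. Psmb7, the trypsin-like catalytic subunit, had 33.2, 20.4 and 23.5 TPM. Psmb3 had 27.1, 18.1 and 21.1 TPM. Psmb1 had 26.2, 16.6 and 19.5 TPM and was the lowest of the tested ring. All 7 were above the band. Psmb11, the form of cortical thymus epithelium, was at 0 expected counts in all libraries, which allows up to 0.0469, 0.0417 and 0.0433 CPM (counts scaled to the library total). The thymus epithelium marker Foxn1 was also at 0. In the second transcript table Psmb11 was listed at 0.011, 0.0024 and 0.0050 TPM. Psmb11 lies 3410 bases from Psmb5 on chromosome 14.

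The ATPases of the base differed by 1.99 times between the highest and the lowest mean. Psmc3, whose C-terminus docks into the alpha ring, had 38.8, 26.7 and 29.0 TPM. Psmc1, which takes part in opening the gate, had 32.3, 19.4 and 25.2 TPM. Psmc5 had 26.1, 17.4 and 20.1 TPM. These were the upper members of the ring in the order of means. Psmc4 had 24.03, 15.4 and 18.7 TPM. Psmc2 had 20.3, 14.4 and 16.5 TPM. Psmc6 had 20.1, 12.4 and 15.01 TPM. The ring holds all 6 in equal number, but Psmc1 exceeded Psmc2 in 3 of 3 libraries, by 0.57 ± 0.13 on the log2 scale (SD, n = 3). Psmc6 was the ATPase not called above the band (limma adjusted p = 0.067), and it was called in the second transcript table (limma adjusted p = 0.00347).

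All 3 other base genes were above the band. Psmd2, the docking site of ubiquitin shuttle factors, had 52.1, 31.5 and 40.1 TPM. The ubiquitin receptor Psmd4 had 30.7, 21.3 and 22.7 TPM. The scaffold subunit Psmd1 had 26.1, 17.8 and 25.7 TPM. Psmd1 was the gene of the core and regulatory particle whose level relative to the median gene varied most, over 0.38 on the log2 scale, while the median such range over the 44 genes was 0.14. The second ubiquitin receptor, Adrm1, is outside the symbol rule and had 20.6, 15.1 and 17.0 TPM. Psmd4 exceeded Adrm1 in 3 of 3 libraries, by 0.49 ± 0.08 on the log2 scale (SD, n = 3).

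The lid held the second gene that stood apart. Psmd8 (chr7:29174188-29180701, minus strand, GRCm38) encodes a subunit whose yeast counterpart joins last as the lid is completed. It had 118, 90.2 and 93.1 TPM. These values were 6.37, 7.602 and 6.63 times the median of the other 7 lid genes, and 6.52, 7.38 and 6.72 times it in the second transcript table. Psmd8 lay 3.79 ± 0.08 over the median gene (log2 scale) (SE, n = 3; limma adjusted p = 3.37e-07).

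The remaining lid genes reached at most 20.5 TPM on average. Psmd14, the deubiquitinase of the lid, had 24.2, 16.5 and 20.6 TPM. Psmd13 had 22.3, 14.3 and 17.7 TPM, of which transcripts annotated as coding held 62.6, 57.8 and 59.6%. Both were above the band, as was Psmd6 with a mean of 18.0 ± 4.24 TPM (SD, n = 3). The call of Psmd13 is for all its transcripts, and its coding transcripts alone were not tested against the band. Psmd3 had 16.3, 10.8 and 14.04 TPM. Psmd11, which clamps the lid to the core, had 15.4, 10.3 and 11.6 TPM. Psmd12 had 14.7, 9.60 and 11.97 TPM. Over all transcripts these were the lowest of the lid, and none of the 3 was called.

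Psmb6 and Psmd8 were the only tested genes of the core and regulatory particle whose mean was above 45 TPM. The other 29 of 31 had means from 12.1 TPM (Psmd12) to 41.2 TPM (Psmd2), a ratio of 3.41, and the median of the 31 was 23.2 TPM. Psmb6 was at 5.12 times and Psmd8 at 4.33 times that median. The counts behind them were 7154, 8670 and 8222 for Psmb6 and 12501, 15775 and 14001 for Psmd8, over effective lengths of 565 and 1174 bases in replicate 1. Across the 44 genes, level and effective length had a Spearman correlation of -0.35 as a description, with genes that share their libraries. Of the 31-base words in the leading transcript, 15.4% in Psmb6 and 1.62% in Psmd8 also occur in another gene, and the pseudogenes Psmb6-ps and Psmb6-ps2 were listed at 0 in all libraries.

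By class, with the untested Psma8 and Psmb11 included, the median of the alpha ring was 37.7, 25.2 and 30.9 TPM. The beta ring had a median of 33.4, 20.6 and 23.4 TPM. For the ATPase ring it was 25.1, 16.4 and 19.4 TPM. The core thus lay over the ATPases in every library. The other base genes had a median of 30.7, 21.3 and 25.7 TPM, and the lid 20.4, 13.0 and 15.7 TPM. The differences that follow are between medians over genes of at least 1 TPM, without Psma8 and Psmb11. The alpha median exceeded the lid median in 3 of 3 libraries, by 0.96 ± 0.07 on the log2 scale, and the ATPase median exceeded it by 0.31 ± 0.02 (SD, n = 3). The beta median and that of the non-ATPase base genes had no stable order, with a mean difference of -0.01 ± 0.13.

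The assembly chaperones had class medians of 4.17, 2.44 and 3.32 TPM. Without Psma8, the alpha ring median was 9.69 times theirs (8.57 times in the second transcript table). Psmg1 to Psmg4 encode the chaperones that arrange the alpha ring, and Psmd5, Psmd9 and Psmd10 those that assemble the base. Psmg1 had 3.19, 2.44 and 2.73 TPM and lay -1.33 ± 0.07 from the median gene (log2 scale) (SE, n = 3; limma adjusted p = 0.00486). Psmg3 had 3.53, 2.35 and 2.82 TPM, at -1.28 ± 0.06 (limma adjusted p = 0.00363). Psmd5 had 3.36, 2.16 and 2.84 TPM, at -1.34 ± 0.07 (limma adjusted p = 0.00218). All 3 calls were lost with a pseudocount of 1, with limma adjusted p-values of 0.194 for Psmg1, 0.291 for Psmg3 and 0.118 for Psmd5, and that of Psmd5 also in the second transcript table (limma adjusted p = 0.196). With no filter on low values, and so a lower median gene, the levels of Psmg1, Psmg3 and Psmd5 were slightly positive at 0.033, 0.078 and 0.019, and none of them was called.

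The other chaperone genes spread more widely. Psmg4 was the highest with 13.8, 9.63 and 8.35 TPM. Psmd10, which encodes gankyrin, had 9.96, 6.88 and 7.42 TPM. Psmd9 had 5.36, 3.73 and 4.12 TPM, and Psmg2 had 4.17, 2.22 and 3.32 TPM. None of these 4 was called. Pomp, the chaperone that matures the beta ring and that carries no Psm symbol, was far higher, with 50.4, 38.5 and 39.6 TPM, and was above the band (limma adjusted p = 2.98e-06).

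Activators can cap the core in place of the regulatory particle. Psme1 and Psme2 encode the subunits of an interferon-inducible cap that opens the core, Psme3 a related nuclear cap, and Psme4 a large nuclear activator. Psme2 had 94.2, 56.3 and 62.0 TPM and was above the band (limma adjusted p = 4.67e-07). Psme1 had 70.1, 44.6 and 45.6 TPM and was also above it (limma adjusted p = 1.24e-06). Psme3 had 18.8, 13.1 and 15.2 TPM. Psme4 had 14.4, 7.97 and 10.4 TPM. Neither nuclear activator was called, with limma adjusted p-values of 0.0867 for Psme3, which was called in the second transcript table (limma adjusted p = 0.0365), and 1 for Psme4.

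Psme3 was below Psme1 in 3 of 3 libraries, by -1.74 ± 0.16 on the log2 scale, and Psme4 by -2.29 ± 0.18 (SD, n = 3). Psme1 was below Psme2 in 3 of 3 libraries, by a smaller -0.40 ± 0.06. Over transcripts annotated as coding this difference was -0.16 ± 0.17, no larger than its spread (SD, n = 3). Psme1 and Psme2 lie 5911 bases apart on chromosome 14 (GRCm38) on opposite strands. The inhibitor gene Psmf1 was low, with 5.69, 3.65 and 3.98 TPM, and at -0.69 ± 0.06 (SE, n = 3), or 0.668 with no filter on low values, it was not called.

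Psme2b is an annotated copy of Psme2 on chromosome 11. It had 12.5, 6.00 and 7.56 TPM, so that 11.7, 9.63 and 10.9% of the summed TPM of both genes stood under the copy. In the second transcript table that share was 18.0, 17.7 and 19.4%, higher in 3 of 3 libraries, so the division between the copies depended on the authors' quantification. The leading transcripts, Psme2-208 and Psme2b-201, aligned over 794 bases with 789 identical (99.4%) and no gap. Both coding sequences have 720 bases, and all 5 differences lie within them. Among them is C519T, counted from the start of the coding sequence with the base of Psme2 first.

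The 41 bases around this position, within 1 exon of Psme2, show how little tells the copies apart. The capital marks the base that differs. The window is at chr14:55588053-55588093 in Psme2 and at chr11:48945580-48945620 in Psme2b, both on the minus strand of GRCm38.
Psme2, C519T: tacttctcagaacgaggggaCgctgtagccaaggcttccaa
Psme2b, C519T: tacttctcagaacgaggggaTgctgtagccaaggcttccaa
Of the 31-base words of Psme2-208, 66.2% also occur in Psme2b, and of those of Psme2b-201, 76.5% occur in Psme2. Within the aligned 794 bases, reads that cover none of the 5 positions could have come from either gene, so the levels of both are uncertain. Their sum, 107, 62.3 and 69.5 TPM, depends on that division through the effective length, which in replicate 1 was 656 bases for Psme2 and 630 for Psme2b.

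Under interferon gamma, inducible catalytic subunits take the place of the standard ones and form the immunoproteasome of antigen presentation. Psmb8, the inducible counterpart of Psmb5, had 63.6, 39.2 and 41.9 TPM. Psmb10, the counterpart of Psmb7, had 63.6, 36.5 and 38.2 TPM. Psmb9, the counterpart of Psmb6, had 22.4, 15.8 and 14.8 TPM. All 3 were above the band, but Psmb9 was not in the second transcript table (limma adjusted p = 0.154) or without replicate 2 (limma adjusted p = 0.0694).

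In TPM summed over all transcripts of a gene, the order of standard and inducible gene was not the same for the 3 active sites. Psmb5 was below Psmb8 in 3 of 3 libraries, by -0.89 ± 0.04 on the log2 scale, and Psmb7 was below Psmb10 by -0.83 ± 0.12 (SD, n = 3). Psmb6 was above Psmb9 in 3 of 3 libraries, by 2.76 ± 0.16, a ratio of 6.75. The order at the first 2 sites turned when only transcripts annotated as coding were counted, a choice made after seeing the data. Psmb5 then had 33.7, 20.8 and 23.3 TPM, against 31.1, 19.4 and 20.99 TPM for Psmb8, and was above it by 0.12 ± 0.03 on the log2 scale. Psmb7 had 33.04, 20.4 and 23.5 TPM in coding transcripts, against 22.96, 13.9 and 15.3 TPM for Psmb10, and was above it by 0.56 ± 0.05. Psmb6 stayed above Psmb9 by 2.62 ± 0.28 (SD, n = 3), so that in coding transcripts the standard gene was the higher one at all 3 sites in 3 of 3 libraries, also in the second transcript table. Each difference was larger than its spread between libraries. The 2-sided exact sign-flip permutation p was 0.25 for each of the 8 gene pairs compared, adjusted p = 0.25, the smallest that 3 libraries can give. Summed over the sites and over all transcripts, the standard genes had 207, 143 and 161 TPM, against 149.6, 91.6 and 94.8 TPM for the inducible genes. Psmb8 and Psmb9 lie 9956 bases apart, and Psmb9 overlaps Tap1 (18.6 TPM) on the other strand. The sources used here do not say whether strand was used in the counting, so values of overlapping genes are uncertain.

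**Figure D3:**
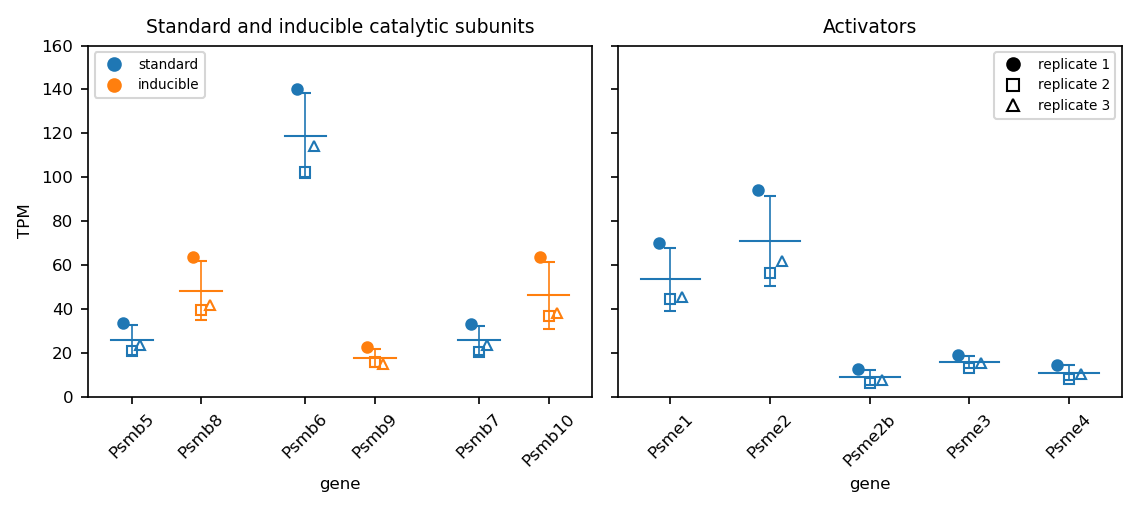
TPM of the standard (blue) and inducible (orange) catalytic subunit genes, paired by active site, and of the 5 activator genes in the 3 libraries (symbols by replicate; horizontal lines, mean; bars, SD). In these sums over all transcripts, Psmb8 and Psmb10 lie above Psmb5 and Psmb7 in each library, an order that turns over coding transcripts, while Psmb6 lies above Psmb9 without overlap.

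Most of the genes were read from 1 dominant transcript. Of the 44, 43 have several annotated transcripts, and the leading one held at least 90% of the gene's TPM in 28 of these 43, with a median share of 96.6%. In the second transcript table the median was 92.4%, and the same transcript led in 39 of 43 genes. Psma3, Psma2, Psmf1 and Psmd13 were the genes whose leading transcript differed between the tables.

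The exceptions included transcripts annotated as noncoding forms. In Psma3 the coding transcript Psma3-204 held 43.8 ± 4.21% (SD, n = 3) and the retained-intron transcript Psma3-203 held 28.8% on average. In Psmd13 the leading transcript, Psmd13-211, is annotated as a target of nonsense-mediated decay and held 35.1, 40.1 and 38.6%, against 34.2% on average for the coding Psmd13-201. Retained-intron transcripts of Psme2 held 9.73, 27.3 and 27.0% of its TPM, lowest in replicate 1. In Psmb6 they held 22.1, 14.9 and 17.2%, so the coding Psmb6-201 accounted for 77.9, 85.1 and 82.8% of the highest gene of the core.

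Several genes divided their TPM between coding transcripts. Psmd4-202 held 60.0, 63.0 and 64.0% and Psmd4-201 held 36.1% on average. Psmc3-202 held 69.5, 70.7 and 73.3%, with 23.6% on average for Psmc3-210. Among the inducible genes, the retained-intron transcript Psmb8-205 held 49.8, 50.2 and 49.4% of Psmb8, and the coding Psmb8-203 held 48.0% on average. In Psmb10 the short noncoding transcript Psmb10-203 held 51.5, 50.1 and 45.9%, so part of the TPM of both inducible genes stood under transcripts not annotated as coding.

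**Figure D4:**
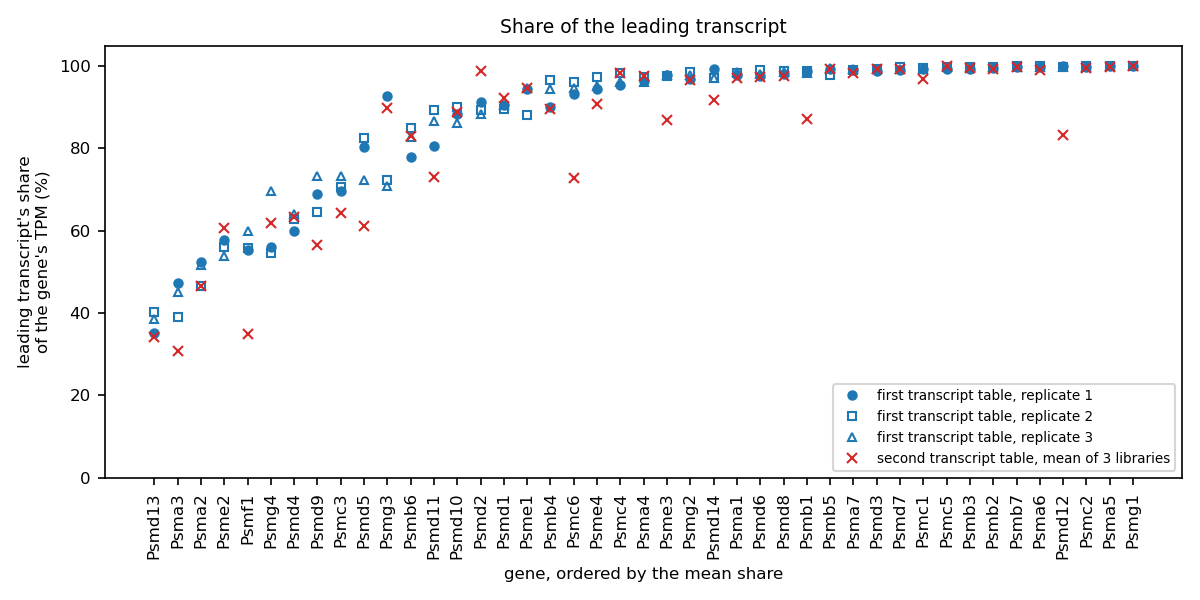
Share (percent of the gene's TPM) held by the leading transcript of the first transcript table in 43 genes with several transcripts, per library (blue), and the share of the same transcript in the second table, mean of 3 libraries (red crosses). In 28 genes the mean blue share is at least 90%, and Psmd13 and Psma3 are the 2 genes under 50%.

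Copies of these genes elsewhere in the genome limit some values. Of the 47 genes, 15 share at least 10% of the 31-base words of their leading transcript with another gene, and 6 share at least 50%: Psma3 (79.0%), Psme2b (78.4%), Psmb5 (74.0%), Psmb3 (66.8%), Psma5 (66.5%) and Psme2 (66.2%). A total of 20 pseudogenes hold at least 10% of the words of some member, and the highest of them was Gm13835, a copy of Psma3, at 0.627 TPM. Levels of pseudogenes and parent genes depend on how the authors divided shared reads. Among the 30 tested genes that share under 10%, 16 were above the band and 2 below it. Over all 9123 tested genes, not restricted by shared words, 26.3% were above and 24.5% below. On the opposite strand, Nek6 (10.6 TPM) holds 30.97% of the words of Psmb7, and Mlx (8.14 TPM) holds 28.2% of those of Psmc3ip, which itself had 0.41, 0.28 and 0.31 TPM.

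The genes kept their order closely from library to library. Spearman correlations of the 44 levels between libraries were 0.990 to 0.991, as a description over genes. Of the 43 pairs of neighbours in the order of mean TPM, 17 had the same order in all 3 libraries, and the other 26 pairs changed order in at least 1 library. Relative to the median gene, the highest value fell in replicate 1 for 10 genes, in replicate 2 for 20 and in replicate 3 for 14.

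The spread between libraries was given by edgeR's tagwise biological coefficient of variation (BCV), the spread beyond counting error as a fraction of the level. Its median was 0.0868 over the 44 genes and 0.102 over the tested protein-coding genes, and 36 of the 44 were under 0.102. The lowest were Psmc6 (0.0807), Psmb1 (0.0809) and Psmc4 (0.0814), subunits of the ATPase and beta rings. The highest were Psmg3 (0.179), Psmg1 (0.177) and Psmg2 (0.174), chaperone genes among the least abundant of the 44. Relative to the median gene, Psmg3 itself ranged over 0.085 on the log2 scale, under the median range of 0.14 over the 44 genes. Psmg1 ranged over 0.27 and Psmg2 over 0.31. The estimate of a gene with few counts is drawn towards the trend of genes of the same abundance, and no test was made. The level of the 44 genes had a median of 1.46 over the median tested gene (log2 scale). Their BCV was not compared with that of genes of like abundance.

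**Figure D5:**
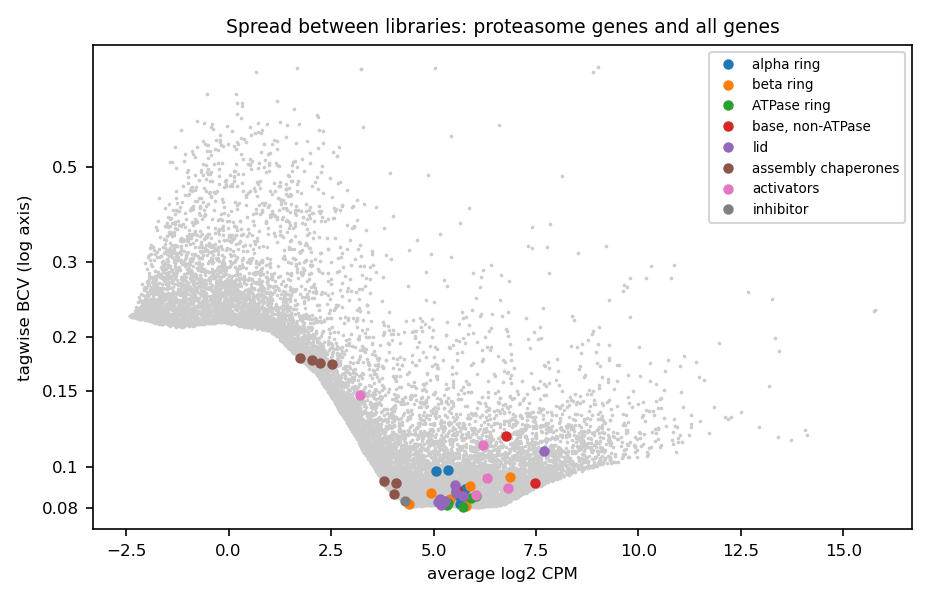
Tagwise BCV (log axis) against average log2 CPM for all genes kept for this estimate (grey) and for the proteasome genes of at least 1 TPM (coloured by class). Most of the 44 lie between 0.08 and 0.1, and the chaperone genes Psmg1 to Psmg4 lie between 0.174 and 0.179.

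Genes that work with the proteasome were read from lists of 36 genes outside the symbol rule, the 3 inducible genes included. Of these, 19 were above the band and none below it, beside 26.3 and 24.5% of all tested genes. At an unadjusted p under 0.05 in limma the count below was also 0. The ubiquitin precursor gene Rps27a had 390.4, 250.3 and 273 TPM, and Ubb averaged 232 ± 55.6 TPM (SD, n = 3). Both were above the band. The main ubiquitin-activating enzyme, Uba1, averaged 29.7 ± 7.38 TPM (SD, n = 3).

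Transcription factors of the Nfe2l family raise proteasome genes when the proteasome is inhibited (Nfe2l1) or under oxidative stress (Nfe2l2). Nfe2l2 had 199, 124 and 112 TPM and was above the band (limma adjusted p = 5.27e-07). Nfe2l1 had 34.1, 21.5 and 27.4 TPM and was also above it (limma adjusted p = 9.69e-06). Of their small Maf partners, Maff averaged 38.7 ± 11.9 TPM (SD, n = 3) and was above the band, while Mafg (13.1 TPM) and Mafk (8.02 TPM) were not called (limma adjusted p = 1 for each). Of this list of 7 genes, 3 were above the band, beside 26.3% of all tested genes. The ATPase Vcp, which extracts ubiquitinated proteins, had 67.5, 41.6 and 57.9 TPM and was above the band. Its cofactor Nploc4 had 14.6, 9.09 and 10.7 TPM and was not called. Of the shuttle factor list, Zfand5 averaged 54.5 ± 13.0 TPM and Zfand2a 30.0 ± 6.01 TPM (SD, n = 3). Sem1, a small lid subunit without a Psm symbol, averaged 31.8 ± 7.24 TPM.

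The promoters were searched for the letters TGACNNNGC, the antioxidant response element that Nfe2l factors bind with a small Maf, on both strands. Windows of 250 bases before and 50 after the start were on hand from RefSeq (GRCm38.p6) for 39 of the 47 genes. The letters were in 6 of 39 (15.4%), against 17.4% of 7297 tested genes and 15.02% of 16522 protein-coding genes. The CCAAT box was in 35.9% of the 39 and in 42.7% of the tested genes, the GC box GGGCGG in 56.4 and 70.9%, and the TATA box TATAAA in 7.69 and 8.21%. In this whole window none of these shares was above that of the tested genes. Of all 16522 protein-coding genes, 42.1% had CCAAT, 51.02% GGGCGG and 14.3% TATAAA. Against all protein-coding genes, the share of TGACNNNGC in the 39 was close (15.4 and 15.02%). That of GGGCGG was above, and the other shares were below. The 39 include Psmb11 and Psmc3ip, which were not tested. Within 150 bases before the start TATAAA was in 2 of the 39 (5.13%) and in 3.73% of the tested genes. The other shares there were below those of the tested genes. They were 7.69 against 9.95% for TGACNNNGC, 25.6 against 31.8% for CCAAT and 46.2 against 60.1% for GGGCGG. The 6 genes with TGACNNNGC had a median level of 14.0 TPM, against 20.5 TPM in the 31 tested genes without it.

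Of the 6 matches, 3 lay wholly within 150 bases before the start, all on the gene's own strand. They are shown because Psmb6 and Psmb5 encode catalytic subunits of very different level with the same letters. The matches begin at -9 in Psmb6 (chr11:70525333-70525371, plus strand), at -47 in Psmb5 (chr14:54618019-54618057, minus strand) and at -31 in Psmd9 (chr5:123228144-123228182, plus strand), where the match overlaps a GC box. Capitals mark the match.
Psmb6: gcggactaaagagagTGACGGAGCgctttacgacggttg
Psmb5: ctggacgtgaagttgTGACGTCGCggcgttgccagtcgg
Psmd9: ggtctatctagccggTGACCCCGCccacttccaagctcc
Psmb6 averaged 118.9 ± 19.5 TPM, Psmb5 25.9 ± 6.83 TPM and Psmd9 4.403 ± 0.85 TPM (SD, n = 3). Psmd8, the other gene that stood apart, has no match to TGACNNNGC in its window. A match is a run of letters and not a measured binding site.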

How the data were processed

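The members and gene lists were chosen with earlier results of these data known. Per the file headers, the deposited gene tables hold expected counts, TPM, FPKM and effective lengths. The deposited transcript tables hold the percent of its gene that each transcript takes, and the authors deposited another transcript table with estimated counts and TPM from a different quantification. Interval bounds on TPM (a signal value, per the file headers) were read and not used in any test. Per the deposited description files, the build is mm10 with GENCODE M21, whose GRCm38 annotation gave names, biotypes and coordinates. The sources used here do not name the authors' programs or versions.

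The tested value was log2(TPM + 0.1) less the median of protein-coding genes averaging at least 1 TPM in that library. It was fitted in limma 3.58.1 (R 4.3.3), intercept only, by treat with a 2-fold band and a trended prior, and p-values were adjusted by Benjamini-Hochberg over 9123 genes. The SE of a level is from the moderated variance of this fit, drawn towards a trend over the tested genes. It is not the SE of the 3 values alone. Gene pairs were tested with a 2-sided exact sign-flip permutation test. Expected counts, rounded to whole numbers, gave the BCV in edgeR 4.0.16 (TMM, filterByExpr, 13026 genes). Chi-square tests of the counts differed in 43.4 to 46.8% of these genes for each pair of libraries, so none was a copy of another. Shared words of 31 bases were counted over all GENCODE M21 transcripts on both strands. Other steps used Python 3.11.15 with pandas 2.3.3 and scipy 1.17.1, and the fit was tested on simulated data.

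Named in the text were the 3 highest and 3 lowest genes of each class by mean TPM, every activator, the inhibitor, genes under 1 TPM or below the band, the 3 highest and 3 lowest BCV, the inducible genes, the highest 2 of each other list and both genes of each pair. Psma1, Psmd6, Ubb, Uba1, Nfe2l1, Mafg, Mafk, the overlapping genes, the pseudogenes and the genes with divided transcripts were named after their values were seen. The listed gene Paaf1 was not analysed here, and some values that this rule selects are not reported here.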

Additional observations from a re-analysis of the deposited data

How the results depend on the processing

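No paired analysis was possible because all 3 libraries belong to 1 group. The 27 genes above the band remained 27 in number with TPM rescaled over protein-coding genes outside the mitochondrial genome. Their number was also 27 with a pseudocount of 1, with FPKM and without each replicate in turn. It was 29 in the second transcript table, 38 without the filter on low values and 38 without the band. Of all genes tested, 4986 of 14388 were above without the filter, and without the band 4203 of 9123 were above and 4203 below. Of the 30 tested genes that share under 10% of their words, a limit chosen after seeing the data, 16 were above. The count below was 0 with a pseudocount of 1, where 1834 of all 9123 tested genes were below, and 6 without the band. Of the 36 companion genes, 32 were above without the filter and 29 without the band, and 4 were below without the band. Dropping the filter brings 14388 genes into the test and lowers the median gene by -1.36 on the log2 scale, and with it the signs of 13 genes turned: Uchl5 (1.33), Ngly1 (1.30), Ufd1 (1.20), Ubqln4 (1.05), Ube3c (0.88), Uba6 (0.83), Psmf1 (0.668), Psmd9 (0.666), Fbxo7 (0.48), Psmg2 (0.21), Psmg3 (0.078), Psmg1 (0.033) and Psmd5 (0.019). Uchl5 also turned in the second transcript table (0.13) and without replicate 1 (0.063), in a range of -0.095 to 0.063 over the replicates left out. Of 720 single-gene alternatives, 647 kept direction and call, 6 lost the call, 52 gained it and these 15 turned.

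Class medians relative to the median gene moved beyond their SD in the second transcript table to 1.40 (ATPases), 2.00 (alpha), 1.73 (beta), 1.07 (lid) and -0.49 (inhibitor), a change whose cause was not tested. With a pseudocount of 1 they were 1.37 (ATPases), 1.99 (alpha), 1.70 (beta), 1.71 (other base genes), 1.07 (lid), 1.03 (activators), -0.93 (chaperones) and -0.60 (inhibitor), since a larger pseudocount shrinks differences. Without the filter, an alternative added after seeing the data, they were 2.84 (ATPases), 3.46 (alpha), 3.19 (beta), 3.20 (other base genes), 2.52 (lid) and 2.48 (activators), and the chaperones (0.25) and the inhibitor (0.67) turned from negative to positive. Of 72 alternatives of the gene pairs, 68 kept their direction. The other 4 count coding transcripts only, also added after seeing the data: Psmb5 minus Psmb8 was then 0.12 (0.12 in the second transcript table) and Psmb7 minus Psmb10 was 0.56 (0.48). The median BCV over the 46 genes with a value was 0.0873, and 0.0887 to 0.0988 without each replicate in turn. The median share of the leading transcript was 92.4% in the second transcript table. With 3 libraries, no exact test can pass 0.05, and genes near the edge of the band, such as Psma2, Psmc6 and Psme3, were not placed on either side of it.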
